A study of Mus musculus with 4 samples.

Results

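The 300 regions of highest fold are the strongest open-chromatin peaks shared by 4 libraries of embryonic mouse lung. Peaks of the 4 deposited lists on the 19 autosomes were merged where they overlapped or adjoined, which gave 298755 regions, and 64838 of these held a peak of every library. In each library the highest fold enrichment in a region was turned into its percentile among that library's autosomal peaks. The 300 regions with the highest mean percentile were kept, so the fold and percentile values chose the members and are given as a description. Position, sequence and the place of the summit were not used in the choice.

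The libraries were made by ATAC-seq, in which the transposase Tn5 cuts and tags accessible DNA, from whole lungs of wild-type (wt) mouse embryos at E15.5, with 60000 nuclei tagmented. The series has 1 group of 4 replicates, numbered 1 to 4, and holds no treated or mutant sample. The labels do not say that the replicates came from separate embryos, so the spread between them may be technical. Whole lung mixes epithelium, mesenchyme, vessels, blood cells and nerve, and a region open in few cells cannot be told apart from one weakly open in many.

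The labels describe all 4 lungs as snap-frozen, whereas the peak names of replicate 1 carry the word "Frais" and those of the others the word "Frozen". Replicate 1 stood apart in the files. Its median fold over autosomal peaks was 8.99, against 3.86, 3.90 and 3.73 in replicates 2, 3 and 4, and it had the fewest autosomal peaks, 131449 against 180007, 208926 and 187928. The part of tissue state and of sequencing depth in this gap was not tested.

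Active promoters of broadly expressed genes keep a stretch of nucleosome-free DNA upstream of the start of transcription, into which Tn5 inserts readily. Many such promoters are CpG islands. They often hold GC boxes, which Sp1 and its relatives bind, and CCAAT boxes, which the trimeric factor NF-Y binds. Enhancers open in fewer cell types and usually lie within introns or between genes. Reads from repeats that the assembly holds in too few copies, such as satellites, telomere repeats, ribosomal DNA and nuclear copies of mitochondrial DNA, can pile up on a single place and give a very high fold without open chromatin there.

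The upstream sequences of 6 genes are shown, chosen by rank and by list and not by motif content. The first 5 are those of the gene-start regions of highest rank with a RefSeq promoter window matched to their summit. The last is that of Etv5, the lung regulator on the fixed lists that had a member at its start. Each is the 200 bases before the annotated start, 5′ to 3′ on the gene's strand, from RefSeq (GRCm38.p6, the assembly that mm10 represents). Capitals mark CCAAT and GGGCGG matches on either strand, so that ATTGG and CCGCCC are the same motifs on the other strand.
Dnpep: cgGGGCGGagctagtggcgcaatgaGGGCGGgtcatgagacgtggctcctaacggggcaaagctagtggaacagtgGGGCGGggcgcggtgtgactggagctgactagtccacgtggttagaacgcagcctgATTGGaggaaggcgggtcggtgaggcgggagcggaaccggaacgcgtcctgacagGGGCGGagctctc
Sp1: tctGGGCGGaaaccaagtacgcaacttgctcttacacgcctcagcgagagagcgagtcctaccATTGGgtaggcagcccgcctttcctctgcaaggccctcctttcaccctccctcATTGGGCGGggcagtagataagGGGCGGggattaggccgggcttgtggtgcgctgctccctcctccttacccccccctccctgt
Ubxn6: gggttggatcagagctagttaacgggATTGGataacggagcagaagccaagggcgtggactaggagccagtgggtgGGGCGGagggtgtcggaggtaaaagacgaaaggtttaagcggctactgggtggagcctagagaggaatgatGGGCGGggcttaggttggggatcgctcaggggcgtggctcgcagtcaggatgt
Khsrp: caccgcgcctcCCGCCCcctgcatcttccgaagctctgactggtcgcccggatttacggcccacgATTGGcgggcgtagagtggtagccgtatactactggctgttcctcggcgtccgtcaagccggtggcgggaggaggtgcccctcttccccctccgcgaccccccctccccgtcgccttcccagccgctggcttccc
Ap2a1: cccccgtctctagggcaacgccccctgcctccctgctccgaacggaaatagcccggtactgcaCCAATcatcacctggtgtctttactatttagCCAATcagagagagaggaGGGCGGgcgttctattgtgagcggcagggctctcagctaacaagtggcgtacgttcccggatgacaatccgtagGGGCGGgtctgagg
Etv5: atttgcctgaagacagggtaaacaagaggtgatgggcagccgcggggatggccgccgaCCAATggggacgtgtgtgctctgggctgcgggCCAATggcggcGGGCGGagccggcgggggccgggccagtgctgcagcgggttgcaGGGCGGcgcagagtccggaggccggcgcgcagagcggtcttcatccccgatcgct
The intervals are chr1:75317638-75317837 (minus strand) for Dnpep, chr15:102406116-102406315 (plus strand) for Sp1 and chr17:56079334-56079533 (minus strand) for Ubxn6. Those of Khsrp, Ap2a1 and Etv5 are chr17:57031508-57031707, chr7:44929491-44929690 and chr16:22439571-22439770, all on the minus strand. Every one of the 6 held at least 1 match of each motif. Of the 214 windows of 300 bases taken at gene-start members, described further on, 54.2% held both. In Sp1 a CCAAT match on the other strand ran into a GC box and shared 2 bases with it.

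Most of the 300 regions lay at promoters. A member was within 1 kb of the start of a protein-coding gene in 252 of 300 cases (84.0%), against 21.6% of all regions with a peak of every library. Either gene end counted as a start where the annotation gave no strand. Distance was taken from the edge of the region, so a wider region reaches a start more easily. The median width was 5.08 kb in members and 1.46 kb in all shared regions. In 214 of the 252 (84.9%) the summit lay within 1 kb of a start known by strand, against 70.4% of other gene-start regions. A further 16 members lay at the start of a non-coding gene (5.33%, background 6.03%). Only 8 lay elsewhere in a gene body (background 38.7%) and 6 between protein-coding genes (background 28.3%), the positions where most enhancers are found. The remaining 18 (6.0%, background 5.39%) had a position that marks a possible repeat or copy, that is, near a chromosome's first or last covered base, over an annotated pseudogene or ribosomal RNA gene, or isolated from genes and other regions.

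Without replicate 1, 235 of 300 regions (78.3%) were at gene starts and 13 (4.33%) were between genes.

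The order within the 300 differed from the total. Of the first 10 ranks, 8 were in such flagged positions, 1 was in a gene body, 1 was between genes and none was at a protein-coding gene start. Of the first 20, 8 were at gene starts, and of the first 100, 72 were. The next 300 regions by rank held 274 gene starts (91.3%) and 3 flagged positions. Flagged positions thus made up 8 of the first 10, 14 of the first 100 and 18 of the 300.

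**Figure D1:**
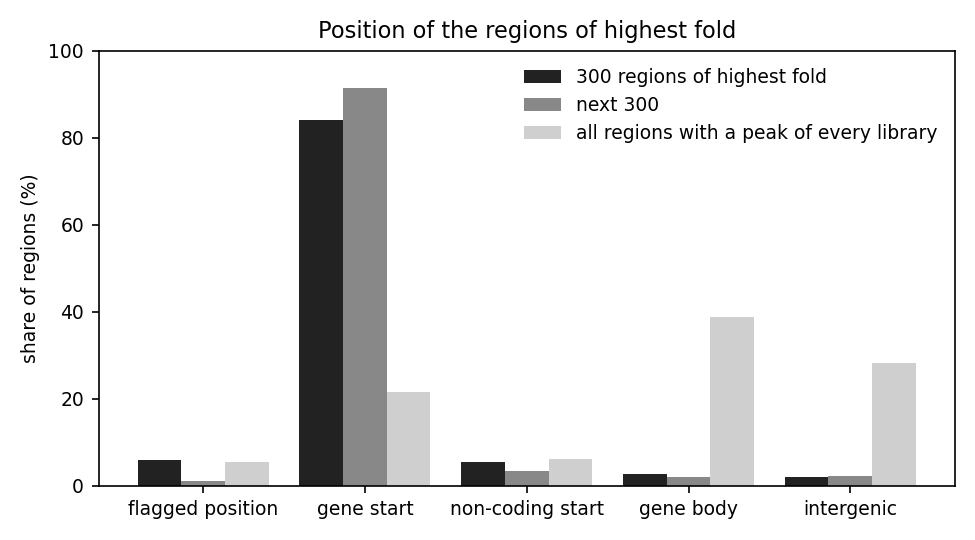
Share of regions (%) in each of 5 position classes for the 300 regions of highest fold (black), the next 300 by mean percentile (dark grey) and all 64838 regions with a peak of every library (light grey). Gene starts make up 84.0%, 91.3% and 21.6%, and flagged positions 6.0%, 1.0% and 5.39%.

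The strongest gene-start member was at Dnpep (aspartyl aminopeptidase), rank 11 at chr1:75313884-75321296 (mm10), with folds of 667.5, 220.0, 199.99 and 236.2 in replicates 1 to 4. The next lay at chr14:67714426-67718011 at Cdca2, a regulator of protein phosphatase on mitotic chromosomes, and Kctd9, with folds of 685.5, 210.4, 206.1 and 211.3. It was matched by gene ends, since no start known by strand lay there. Sp1, which encodes the GC-box-binding factor itself, had folds of 712.2, 209.5, 177.1 and 194.8 at chr15:102403283-102409036. In all 3 regions replicate 1 was the highest, at 3.05, 3.28 and 3.67 times the mean of the others.

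Ubxn6, which encodes a cofactor of the p97 ATPase, shared its region with Hdgfl2 and had folds of 673.6, 198.2, 189.4 and 207.6. Khsrp, an RNA-binding protein of splicing and mRNA decay, had 644.1, 214.5, 195.5 and 195.7 in a region shared with Slc25a41. The remaining gene starts of the top 15 were Dgat2 (triglyceride synthesis), Ap2a1 (the clathrin adaptor AP-2), Prmt1 (arginine methylation), Rnf44, Rab40c, Mtmr4, Tomm40 (the mitochondrial import pore), Kri1 with the cell cycle inhibitor Cdkn2d, Xpo1 (nuclear export), and a set of predicted genes in a repeated array on chromosome 6 described further on. Dgat2 had folds of 662.4, 201.8, 179.7 and 211.0, and Ap2a1 had 629.0, 199.3, 173.2 and 181.4.

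Over all 252 gene-start members the median fold was 374, 125, 112 and 122 in replicates 1 to 4. Replicate 1 was the highest in all 252, as it was in 93.5% of all shared gene-start regions and 87.4% of all shared regions. Its fold was 3.15 times the mean of the other 3 at the median (1.97 to 4.02). Over all gene-start regions with a peak of every library that ratio was 2.49 at the median. In 272 of the 300 members replicate 1 stood apart as the highest library by Dixon's criterion (background 47.8%). This is a description, since the folds chose the members and replicate 1 also had the highest median fold over all autosomal peaks. The order of the other 3 libraries was less fixed, and replicate 4 was the lowest in 56 of the 252.

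Of the listed regulators of lung cell types 1 had a member, too few for a reading, although nearly all had an open promoter. Of 20665 protein-coding genes, 342 (1.65%) had a member within 1 kb of the start, and 14434 had a shared region there. Of 64 lung regulators 1 did (1.56%), which is near that background: none of 32 on the mesenchyme list, where all 32 had a shared region, and 1 of 32 on the epithelium list, where 30 had one. It was Etv5, an ETS factor of the FGF response in the distal epithelium. Etv5 ranked 283, at chr16:22437667-22442356, with folds of 338.6, 106.8, 90.8 and 98.95. It was no longer among the 300 without replicate 1, with a stricter q threshold or when ranked by mean log2 fold.

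Outside the members, the shared regions of highest rank at lung regulators were those of Tbx2 (rank 606), Irx5 (970) and Tbx3 (1000). The median best rank was 6750.5 for the mesenchyme list and 7522 for the epithelium list. It was 8120 for all protein-coding genes with a shared region at their start. Among the markers of lung, Sftpc (surfactant protein C) had rank 4656, Hoxa5 4722, Tbx4 4744, Foxf1 5030, Sox9 7251, Foxa2 8626, Tbx5 10257, Nkx2-1 16730 and Fgf10 19508, out of 64838. Of all 20665 protein-coding genes, 14434 had a shared region at their start. All 10 lung markers had one, as did 5 of 13 autosomal markers of other cell types: Msln, Kdr, Cdh5, Sox10 and Wt1, at ranks 15598 to 25760. Pecam1, Ptprc, Hbb-bs, Nkx2-5, Myh6, Alb and Afp were among those with none. None of 39 HOX genes had a member, where 1.65% of all protein-coding genes had one, so a list this short allows no reading. Hoxa4 was the highest of them at rank 2327.

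The lists of signalling pathways and other cell types gave 0 or 1 member each, and lists this short allow no reading against the background. The Notch list had 1 of 19, Numb, an inhibitor of Notch, at rank 183 with folds of 369.1, 125.9, 98.9 and 108.9. The immediate early list had 1 of 20, Zfp36, an mRNA decay factor, whose region at rank 267 also covered the start of Plekhg2 and had folds of 335.1, 112.4, 92.8 and 98.3. Etv5 was also the 1 of 17 on the FGF and ERK list. No gene of the Hedgehog, Wnt, BMP and TGF-beta, smooth muscle, endothelium, blood, cartilage or mesothelium lists had a member. Erbb3 of the neural list was 1 of 14, in a region at rank 63 whose summit lay upstream of Pa2g4, a proliferation-associated gene. Erbb3 was not taken as the nearest gene of this region. Either gene end was used where no strand was given, and whether the match was to the start of Erbb3 was not checked. The folds of the region were 573.4, 140.8, 150.1 and 138.8.

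On the housekeeping list 4 of 22 matched genes had a member (18.2%): Hspa8 (a constitutive heat shock protein), Eif4a1 and Eef1a1 (translation factors) and Tubb5 (a tubulin). Hspa8, at rank 149, had folds of 388.1, 132.2, 97.8 and 125.1. Ribosomal protein genes had 4 of 76 (Rps21, Rpl13a and Rps29 among them) and histone genes 4 of 75. The histone members were the H3c15 and H2ac19 pair at rank 46 and the H2ac18 and H3c14 pair at rank 287, neighbours on chromosome 3, and the first had folds of 466.4, 189.4, 156.3 and 167.1. The number of genes per list is small, and the median best rank was 1878 for housekeeping genes, 5083 for ribosomal protein genes and 8120 for all protein-coding genes with a shared region at their start.

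The promoters of the members were rich in CCAAT boxes. Windows from 250 bases before to 50 after the start were taken from RefSeq for the 214 gene-start members whose summit lay within 1 kb of a start with a window; 38 had none. At least 1 CCAAT was found on either strand in 140 of the 214 windows (65.4%), against 37.9% of the 9662 windows at other gene-start regions and 38.1% of all 20085 windows. At least 2 were found in 46.7%, against 14.1% and 12.8%. The GC box GGGCGG was found in 86.0% against 67.0% and 47.0%, and both motifs together in 54.2% against 24.7% and 17.0%.

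Each of the other 8 motifs was in fewer windows, and 5 of the 8 were rarer in the members than at other gene-start regions. The ETS motif CCGGAAG was found in 10.3%, against 16.9% of other gene-start windows and 11.9% of all windows. The TATA box TATAAA had 6.54%, 6.42% and 12.7%, the CRE TGACGTCA 0.935%, 3.32% and 2.30%, and the AP-1 motif TGACTCA 0.935%, 3.39% and 4.70%. The homeodomain core TAATTA, of the kind HOX proteins bind, had 1.40%, 2.17% and 4.48%. The NRF1 motif was in none of the 214 windows (2.02% and 1.34%), the YY1 motif AAGATGGCG in 3.27% (2.65% and 1.83%), and the CTCF core in 4.21% (2.49% and 1.65%). All 10 motifs were searched on both strands; a match describes letters, not a bound site.

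The CCAAT share fell with rank. It was 65.4% in ranks 1 to 300, 58.2% in 301 to 600, 57.5% in 601 to 1200, 50.6% in 1201 to 2400, 47.2% in 2401 to 4800 and 35.0% in 4801 to 9600, and lay between 31.0% and 33.3% in the 3 later ranges. Windows with 2 or more fell from 46.7% to 7.57% in ranks 19201 to 38400. The GC-box share stayed near 86% over the first 600 ranks and was 42.8% in the last range. The ETS motif did not follow this order: it was lower in the first 300 than in ranks 601 to 9600, where it held between 20.4% and 21.6%.

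**Figure D2:**
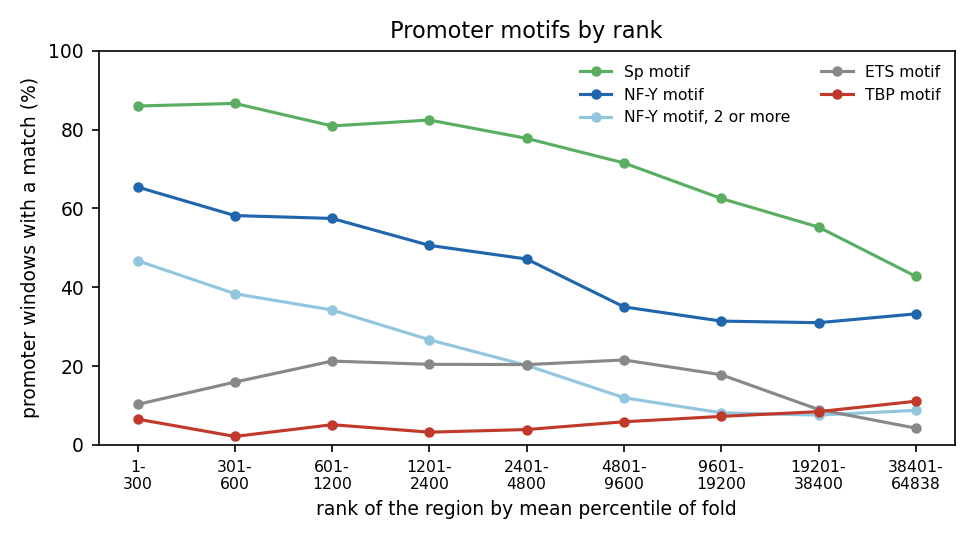
Share of promoter windows (%) holding each motif, for gene-start regions in 9 ranges of rank by mean percentile of fold; the Sp motif is the GC box, the NF-Y motif the CCAAT box and the TBP motif the TATA box. The share with a CCAAT box falls from 65.4% in ranks 1 to 300 to 31.0% in ranks 19201 to 38400, and the ETS share is highest in the middle ranges.

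GC content differed between the sets, so the windows were also compared within ranges of it, a step chosen after the data were seen. The median GC content was 65.0% in members, 61.7% at other gene-start regions and 57.0% in all windows, and the ratio of observed to expected CpG was 0.807, 0.758 and 0.586. Among windows of 50 to 60% GC, 84.6% of 39 member windows held a CCAAT box, against 43.6% of other gene-start windows. In 60 to 70% GC the shares were 69.4% of 124 and 37.5%, and in 70 to 80% GC 40.4% of 47 and 27.1%. The CCAAT share was higher in members than at other gene-start regions in each of the 3 ranges. The GC-box shares came close in the highest range (95.7% and 92.9%). In the next 300 the CCAAT shares were 74.4%, 58.8% and 42.9%, so in the highest range the members were not above them.

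The summits of the members lay further upstream than those of other promoters. The median summit was 173 bp upstream of the gene start (quartiles −237 and −115 bp), and 200 of 214 (93.5%) lay upstream. In the next 300 the median was 124.5 bp upstream, and at other gene-start regions 36 bp, with 65.0% upstream. CCAAT matches in member windows had a median position of −111 bp, against −84 bp in other windows. Gene pairs transcribed away from each other were at 19 of the 252 (7.54%), 12.8% of gene starts in the next 300 and 4.96% of other gene-start regions.

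**Figure D3:**
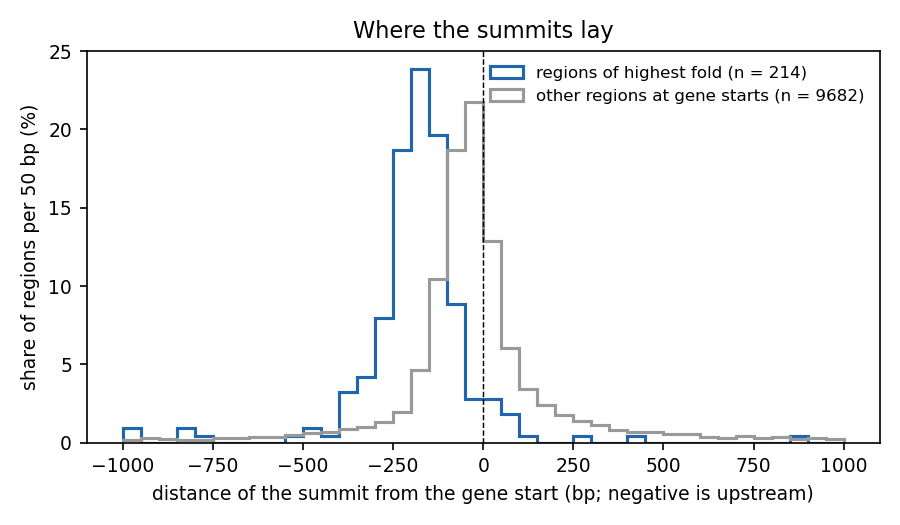
Distance of the summit from the gene start (bp, negative upstream) for 214 gene-start members (blue) and 9682 other gene-start regions (grey), as the share of regions per 50 bp. The member summits are centred 173 bp upstream of the start, those of the other regions 36 bp upstream.

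The members were wide, and width is not independent of fold, since a higher peak can be called wider. Their median width was 5.08 kb, against 4.39 kb in the next 300 and 1.46 kb in all shared regions, and 54 of 300 (18.0%, background 1.28%) reached 10 kb. The 3 widest were merged from several neighbouring promoters. The widest, 50203 bp at chr10:81339096-81389298, held 47 peaks over the starts of Gipc3, Hmg20b, Mfsd12, Fzr1 and Dohh among others, and had folds of 286.2, 115.7, 102.5 and 118.9. The others covered Il4i1, Tbc1d17, Akt1s1 and Ptov1 among others (41499 bp) and Zfp469 with Zfpm1 (38939 bp). The strongest peaks of the 4 libraries shared a base in all 300 members and in 90.5% of all shared regions, and the 4 summits spanned 37 bp at the median, against 143 bp.

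Members were unevenly spread over the genome. Chromosome 7 held 44 (14.7%), with 6.57% of shared regions and 9.82% of protein-coding genes, and chromosome 11 held 32 (10.7%). The densest stretch, on chromosome 10 between summits at 79854457 and 81378668, held 12 members. Of the 300, 141 lay within 1 Mb of another member, and 143 of the next 300 lay within 1 Mb of another of their own set.

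The flagged members were led by rank 1, chr1:24611535-24616179, over the pseudogenes Gm10222 and Gm10925, with folds of 3545, 2090, 1704 and 1667. This interval is known as a long nuclear copy of mitochondrial DNA in the mouse assembly. Reads of mitochondrial origin were not examined here. At rank 6 stood a 37.3 kb block at the first covered bases of chromosome 9, chr9:3000578-3037862, a place known for satellite repeats beside the centromere, with folds of 618.4, 1193, 1011 and 1134. Replicate 1 was the highest library in the first region and the lowest in the second.

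Of the 18 flagged members, 8 were the last region with any peak on their chromosome, beside the telomere: ranks 2, 3, 4, 8, 9, 60, 77 and 275, on chromosomes 14, 7, 18, 12, 16, 2, 3 and 19. The strongest, chr14:124801234-124802239, had folds of 1552, 2069, 2139 and 2530 in replicates 1 to 4. The chromosome 7 region at rank 3, chr7:145340929-145341454, had 867.0, 1240, 1272 and 1520, and the weakest, at rank 275 on chromosome 19, had 229.7, 326.9, 337.9 and 415.7. In all 8 replicate 1 was the lowest and replicate 4 the highest, an order found in 2.4% of all shared regions and 0.971% of shared gene-start regions, and in none of the 252 gene-start members. The fold of replicate 1 was 0.656 times the mean of the others at the median (0.608 to 0.710).

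The same order was also found at some chromosome ends outside the members. The last region held a peak of every library on 13 of 19 chromosomes. Replicate 1 was the lowest and replicate 4 the highest on 12 of the 13, which include the 8 members. The ends outside the members were those of chromosome 13 (rank 314), 10 (rank 477), 1 (rank 553) and 11 (rank 2462). The exception was chromosome 4, at rank 30603. The order was not general near chromosome ends. Of the 49 shared regions flagged as within the last 100 kb covered, 14 (28.6%) had it, and replicate 1 was the highest in 26.

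**Figure D4:**
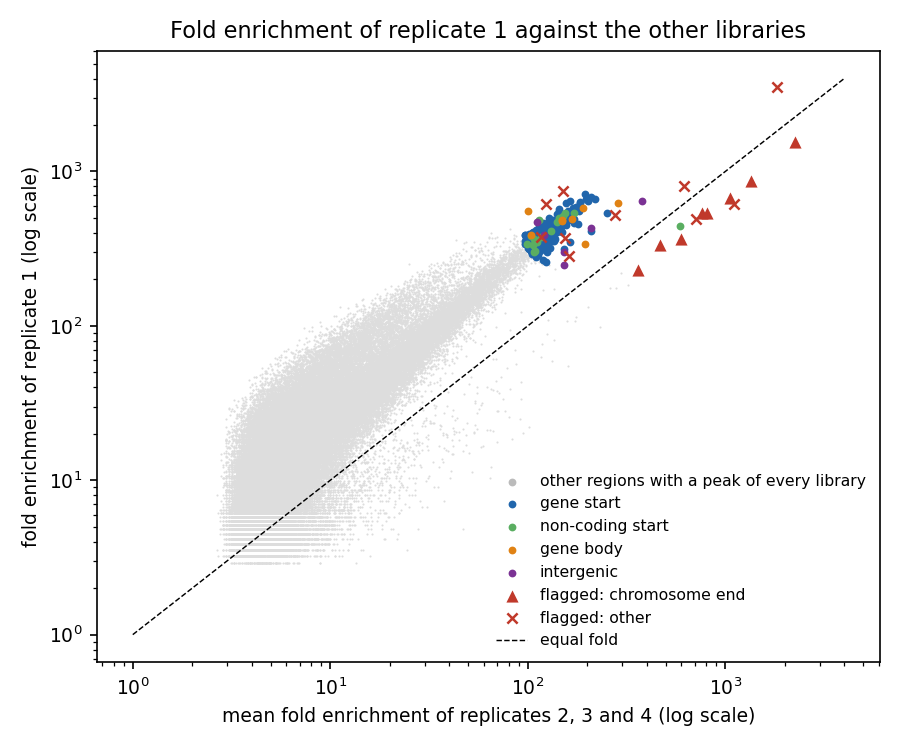
Fold enrichment of replicate 1 against the mean of replicates 2, 3 and 4, both on log scales, for the 300 members by position and for all other regions with a peak of every library (grey); the dashed line marks equal fold. The gene-start members lie above the line at a median ratio of 3.15, and the 8 chromosome-end members (triangles) lie below it at 0.608 to 0.710.

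Only 11 of the 300 members had a lower fold in replicate 1 than the mean of the others (background 8.33%). Of the 11, 8 were the chromosome ends and 1 the chromosome 9 block. The others were a region over the pseudogene Gm20590 at rank 18, chr13:74528432-74531121, with folds of 494.4, 684.7, 690.5 and 755.5, and the start of the non-coding gene 2700054A10Rik at rank 25, chr17:13550137-13554017, with 440.7, 567.9, 567.7 and 632.0. In both, as at the chromosome ends, replicate 1 was the lowest and replicate 4 the highest library, with replicate 1 at 0.696 and 0.748 times the mean of the others.

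Regions under 1 kb wide were rare among the members, 10 of 300 (background 30.2%), and none was at a protein-coding gene start. Besides 4 of the chromosome ends they were 6 regions of 229 to 623 bp. The strongest, at chr12:97061428-97061787 and far from any gene, had folds of 809.8, 689.1, 609.7 and 553.9. Rank 7, chr13:9011688-9012163 inside the non-coding gene Gm36264, had 644.4, 484.5, 361.8 and 293.1, and rank 10, chr9:123461796-123462182 inside Lars2, the mitochondrial leucyl-tRNA synthetase, had 627.4, 354.5, 296.1 and 211.0. The other 3 lay inside Jarid2 (rank 71), isolated on chromosome 18 (rank 138, with folds of 371.7, 215.6, 151.0 and 95.5) and inside the non-coding gene Gm46595 (rank 171, with folds of 298.8, 193.0, 149.9 and 112.3).

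All 6 of these narrow regions had replicate 1 as the highest and replicate 4 as the lowest library (background 37.7%), with replicate 1 at 1.31 to 2.95 times the mean of the others. This order was the reverse of the chromosome ends. Of the 252 gene-start members, 56 shared it.

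**Figure D5:**
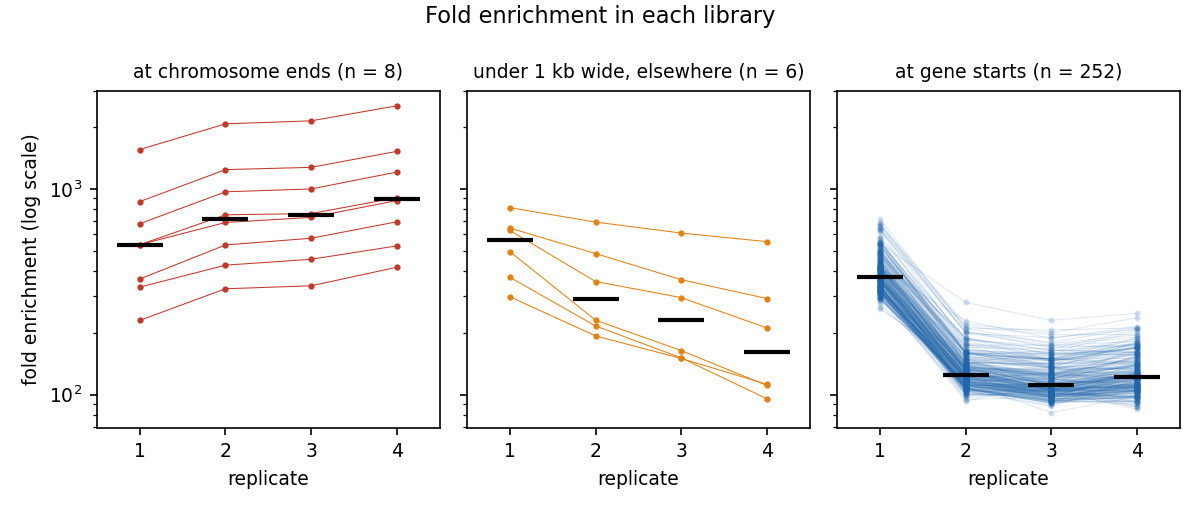
Fold enrichment (log scale) in replicates 1 to 4 for the 8 chromosome-end members, the 6 members under 1 kb elsewhere and the 252 gene-start members; thin lines join the values of a region and black bars mark the medians. Replicate 1 is the lowest library in all 8 of the first set and the highest in all regions of the other sets.

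The other flagged members were 4 pseudogene regions on chromosome 8 and 2 others. Gm10060 at rank 19 had folds of 519.4, 290.7, 270.5 and 263.6. The region over Gm21092 and Gm21112 at rank 44 had 744.9, 152.4, 159.3 and 139.4, that over Gm7807 at rank 98 had 614.2, 117.6, 134.5 and 120.7, and that over Gm20584 at rank 166 had 283.3, 173.6, 156.8 and 152.8. The isolated region on chromosome 18 was described above. The last, at rank 154, chr2:3281689-3285688, lay in the flagged zone at the start of chromosome 2 but over the start of Nmt2, an N-myristoyltransferase, and its folds of 377.1, 115.4, 111.1 and 123.8 had the ratio of a gene-start member, 3.23.

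A total of 14 members lay in 3 repeated arrays that were singled out after their values were seen. On chromosome 8 between 19698305 and 20606813, 7 members of 132 shared regions had ratios of replicate 1 to the others from 1.76 to 4.95. On chromosome 6 between 47650114 and 47779777, around the small-RNA gene Rn4.5s and predicted genes such as Gm40363, 3 of 5 shared regions were members, with ratios from 1.62 to 2.15. The one at rank 16 had folds of 542.2, 280.5, 229.5 and 248.3. Within Tex14 on chromosome 11, 4 of 9 shared regions were members and lay at copies of the U3 small nucleolar RNA gene, Rnu3b1 to Rnu3b4, which guides processing of ribosomal RNA. Their ratios of 3.35 to 3.49 lay within the gene-start range, and the region at Rnu3b1 had folds of 538.4, 188.8, 137.6 and 136.3. Reads from near-identical copies cannot be assigned with certainty, so the fold of a single copy in these arrays is uncertain.

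The non-coding starts outside the arrays included 4932412D23Rik within Zbtb20 (rank 27), D130051D11Rik (rank 103) and the Mir22hg host of the microRNA Mir22 (rank 151). Chaserr stood at rank 233. The last 3 were named after their values were seen. Over all 16 non-coding starts the fold of replicate 1 was 3.30 times the mean of the others at the median (0.748 to 4.27).

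Few members were candidates for enhancers by position. Of the 14 members in gene bodies or between genes, 2 were in arrays and 4 were narrow regions. The other 8 were 1 kb or wider. Replicate 1 was the highest library in all 8 (background 86.1% in gene bodies and 86.3% between genes). Of these, 6 lay inside genes, among them Ank3 (rank 22), Ssc4d (rank 64), Phf19 (rank 66), Myo3a (rank 84) and Map3k2 (rank 197), and 2 lay between genes, nearest to Defb42 (rank 143) and Serpinh1 (rank 163). The region in Map3k2, a MAP kinase kinase kinase, had folds of 558.3, 104.4, 86.3 and 110.2 and the highest ratio among the members, 5.57. An unannotated or alternative promoter at these places was not tested.

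The ranking held in libraries that were not used to choose the regions. When the 300 were chosen from replicates 2, 3 and 4, 282 (94.0%) were in the top 1% of replicate 1, where 1.43% of all regions of those 3 libraries were. With replicate 2, 3 or 4 left out, all 300 were in the top 1% of that library, against 2.65%, 3.1% and 2.72%. Every region chosen in this way had a peak in the library left out, but so had most regions of the 3 libraries used. Those without one were 24967 of 89921 with replicate 1 left out and 3418 of 69057 with replicate 2. They were 3167 of 69054 with replicate 3 and 5855 of 72606 with replicate 4. With replicate 1, 2, 3 or 4 left out, 266, 290, 293 and 287 of the regions chosen overlapped 1 of the 300 members. The members were ranked on these same 3 libraries and the one left out, so this overlap is partly set by the rule.

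The edge of the list was not a step. The last 5 members were at Pwwp2a, Eef1a1, Serf2, Cdv3 and Zfp469 with Zfpm1, and the first 5 regions outside included those at Atp5g1, Crocc, Srd5a1 with Nsun2, and Slc39a13. The mean percentile was 99.8059 at rank 300 and 99.8052 at rank 301. The SD of the percentile over the 4 libraries was at most 0.348, in the chromosome 19 end; the next highest were 0.264 in the chromosome 6 array at rank 250 and 0.199 at Cdk4, Marchf9 and Tspan31 at rank 279.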

How the data were processed

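Peak lists of 4 ATAC-seq libraries were used as deposited. The submitters' processing notes name, among other tools, Bowtie2 2.5.2 and MACS3 3.0.1 and the build mm10; settings, and whether duplicates or mitochondrial reads were removed, are not given in the sources used here. The deposited lists give for each peak a fold enrichment over background at the summit, which is a ratio and is the authors' own value, a −log10 p and a −log10 q, and a score that was not used. The authors called peaks in each library separately, as 1 list per library shows. Library totals are not given in the sources used here. Folds under 15 were whole multiples of 1 step in each library (100% within 0.02 steps). The corresponding pileup at member summits had a median of 1182.5, 458.5, 405 and 396 in replicates 1 to 4. Counting error at the members is small only if these reads are independent, which is not known where duplicates may have been kept.

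The lists held 731705 peaks, 708310 of them on the 19 autosomes. The members and the gene lists were chosen with earlier results of these data known. Gene positions came from the RefSeq table of GRCm38.p6; 16457 protein-coding genes had a start by strand and for 4208 either end was taken. Position classes were assigned in order: flagged (first 3.5 Mb or last 100 kb covered of a chromosome; an annotated pseudogene or rRNA gene with no other gene start within 1 kb; or no gene within 10 kb and no shared region within 20 kb), start of a protein-coding gene within 1 kb, non-coding start, gene body and intergenic. No genome sequence was used, so repeat content was not checked. No test between groups was run, since there is 1 group and the folds chose the members; Dixon's criterion only marks libraries that stand apart. Named regions were all flagged members, the 15 highest gene starts, the 6 highest of each other class, members at listed genes, 5 on each side of the last rank, the 3 widest and the 3 with the largest SD; a few that this rule names are not reported here. Python 3.11.15, pandas 2.3.3, NumPy 2.4.6, SciPy 1.17.1 and Matplotlib 3.10.9 were used, and the merging and classification were tested on simulated peaks.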

Additional observations from a re-analysis of the deposited data

Results flagged for a closer look

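In a group of 4 libraries, a value was marked where its gap to the nearest other library, as a share of the range, was above Dixon's 95% critical value, which chance exceeds in about 1 group in 20. In 272 of the 300 members the fold of replicate 1 stood apart in this way, always as the highest, 244 of them at gene starts; of all 64838 regions with a peak of every library, 47.8% had replicate 1 apart as the highest. The folds chose the members, so these gaps are a description. The gap was 0.969 of the range for the median fold of all autosomal peaks and 0.948 for that of the members. By class it was 0.95 at gene starts, 0.961 at non-coding starts, 0.996 in gene bodies and 0.867 between genes.

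Among gene-start members the gap was 0.923 at Dnpep, 0.989 at Cdca2, 0.939 at Sp1, 0.963 at Ubxn6, 0.958 at Khsrp, 0.837 at Gm40363, 0.935 at Dgat2 and 0.943 at Ap2a1. It was 0.893 at H3c15, 0.974 at Pa2g4, 0.881 at Hspa8, 0.900 at Numb, 0.919 at Plekhg2 with Zfp36, 0.911 at Gipc3 and 0.935 at Etv5. In the pseudogene regions it was 0.894 at Gm10060, 0.967 at Gm21092, 0.966 at Gm7807 and 0.840 at Gm20584. It was 0.952 at Nmt2, 0.869 at the U3 gene Rnu3b1 and 0.95 in Map3k2. The chromosome ends and the narrow regions at ranks 5, 7, 10, 138 and 171 were not marked.

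The share of regions in the top 1% of the library left out was 94.0% for replicate 1 and 100% for each other, so the gap was the whole range (1.0).

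Outside the 19 autosomes, 1989 regions held a peak of every library. Of these, 2 had a fold at or above the lowest of the members in every library. Both were on contigs not placed on a chromosome, and none was on X, Y or the mitochondrial genome.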

How the results depend on the processing

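Over 13 values and 17 alternatives, 202 of 212 recomputed values stayed within the interval or spread of the original and 10 moved. These are not separate checks. Other windows at gene starts, another chromosome start, and 150 or 600 regions kept could not change the share of members kept. The intervals of the short gene lists are wide. The share of the 300 regions kept was lowest without peaks wider than 10 kb (85.7%) and lay between 88.7% and 97.7% when 1 library was left out; under the other alternatives it was 93.0% or more. With 150 regions kept, flagged positions were 10%, gene starts were 79.3% and housekeeping genes with a member 4.55%; with 600, flagged positions were 3.5%. Leaving out 1 library gave gene starts at 78.3% to 85% and intergenic members at 1.67% to 4.33%, with 78.3% and 4.33% without replicate 1. The share of lung regulators with a member, 1.56%, was 0 with a −log10 q of 5 or more, with ranking by mean log2 fold, with 150 regions and without replicate 1; leaving out 1 library gave 0 to 1.56%. The CCAAT share lay between 61.7% and 66.4% over all alternatives. No paired analysis was possible because the series has 1 group. The comparisons within ranges of GC content and of rank were added after the data were seen. The files limit what depth can show: they list called peaks only, so a region without a peak in a library has no value.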
